A study of Mus musculus with 7 samples.

Results

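The genes described here mark the subsets of dendritic cells, and 9 of the 20354 genes in the count table were chosen by symbol: Xcr1, Clec9a, Batf3, Irf8, Flt3, Zbtb46, Cd209a, Siglech and Klk1. All 9 were detected in every library and all 9 passed the filter on low counts. RNA was sequenced from the nonparenchymal cells of mouse liver, the fraction that remains when hepatocytes are removed. The 3 knockout (KO) libraries came from Shp2f/f:Clec4f-Cre+/- mice, in which Cre recombinase expressed from Clec4f, a gene of resident liver macrophages (Kupffer cells), deletes the floxed Ptpn11 gene of the tyrosine phosphatase Shp2. The 4 wild-type (WT) libraries came from mice whose labels give no floxed or Cre allele. All mice were C57BL/6J and 2 months old, and the labels name no treatment. The genotype field names Shp1, Shp2 and Shp3 in turn for the 3 KO libraries, and their titles, which all name Shp2, were followed. Dendritic cells are not the target of this Cre. The comparison asks how genes of a neighbouring cell type stood in livers whose Kupffer cells were targeted for Shp2 deletion.

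Dendritic cells take up antigen and present it to T cells. Conventional type 1 cells (cDC1) depend on the transcription factors Irf8 and Batf3 and specialise in showing material from dead cells to CD8 T cells. Conventional type 2 cells (cDC2) mainly present antigen to CD4 T cells, and plasmacytoid cells (pDC) release type I interferon. All of them grow from bone marrow progenitors that respond to the cytokine Flt3l, and in liver they sit around the portal tracts and in the sinusoids beside the far more numerous Kupffer cells. In RNA from a mixed fraction, fewer cells of a type and less RNA per cell cannot be told apart.

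Values are given in CPM, the count of a gene relative to its library's total, here scaled with edgeR's TMM factor. Totals ran between 15263666 and 32003205 counts in KO libraries and between 11678385 and 26545605 in WT libraries, so that 3 counts, the number that a count of 0 can hide, stood for 0.0908 to 0.249 CPM. The targeted gene Ptpn11 was at 78.5 ± 8.11 CPM (SD, n = 3) in KO and 83.5 ± 8.57 CPM (SD, n = 4) in WT libraries, a weak check of the genotype in a mixed fraction. Clec4f was at 584 ± 242 CPM (SD, n = 3) in KO and 1891 ± 549 CPM (SD, n = 4) in WT libraries. The Cre is expressed from Clec4f, and its effect on the level of this gene was not tested. Hepatocyte transcripts were present in this fraction, with Alb at 23209.9 ± 9635 CPM (SD, n = 3) in KO and 26838 ± 13146 CPM (SD, n = 4) in WT libraries. A pair of libraries stood apart in 18S rRNA or in endothelial markers. KO replicate 3 had 7.54% of its counts in the 18S rRNA gene Rn18s, against 0.0527% to 0.122% in every other library. In WT replicate 2 the summed level of 13 sinusoidal endothelial markers was 16837 CPM, against 6141 to 10173.5 CPM elsewhere. Fold changes are therefore given with and without this pair. KO replicate 2 stood apart in another measure, with 33.2% of its counts in mitochondrial genes, against 17.3% to 22.4% in every other library. It was left out in turn like every other library.

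No subset gene passed the test at an adjusted p of 0.05 (edgeR's quasi-likelihood test with Benjamini-Hochberg adjustment over 14077 genes), nor did any of those genes, so 0 of 9 stand beside 0% of all genes. The KO and WT values did not overlap in 1 of 9, Batf3, beside 6.07% of all genes in either direction. At an unadjusted p under 0.05 there were 2 of 9, Batf3 with higher values in KO and Klk1 with lower ones, where 4.62% of all genes tested had such a p (2.27% higher, 2.35% lower). DESeq2, limma voom and voom with library quality weights each called 0 of the 9 as well, and each had 2 at an unadjusted p under 0.05. These were Batf3 and Klk1 in DESeq2 and in voom, and Cd209a and Klk1 with quality weights. The shares of all genes with such a p were 5.54% in DESeq2, 4.52% in voom and 11.2% with quality weights. At the adjusted threshold DESeq2 called 0.469% of all genes and voom with quality weights 0.0639%. The other 7 genes had log2 fold changes between -0.45 and 0.23 on KO minus WT. Over the 9 genes the median was 0.04, with 5 above 0 and 4 below, and over all genes tested it was 0.01.

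**Figure D1:**
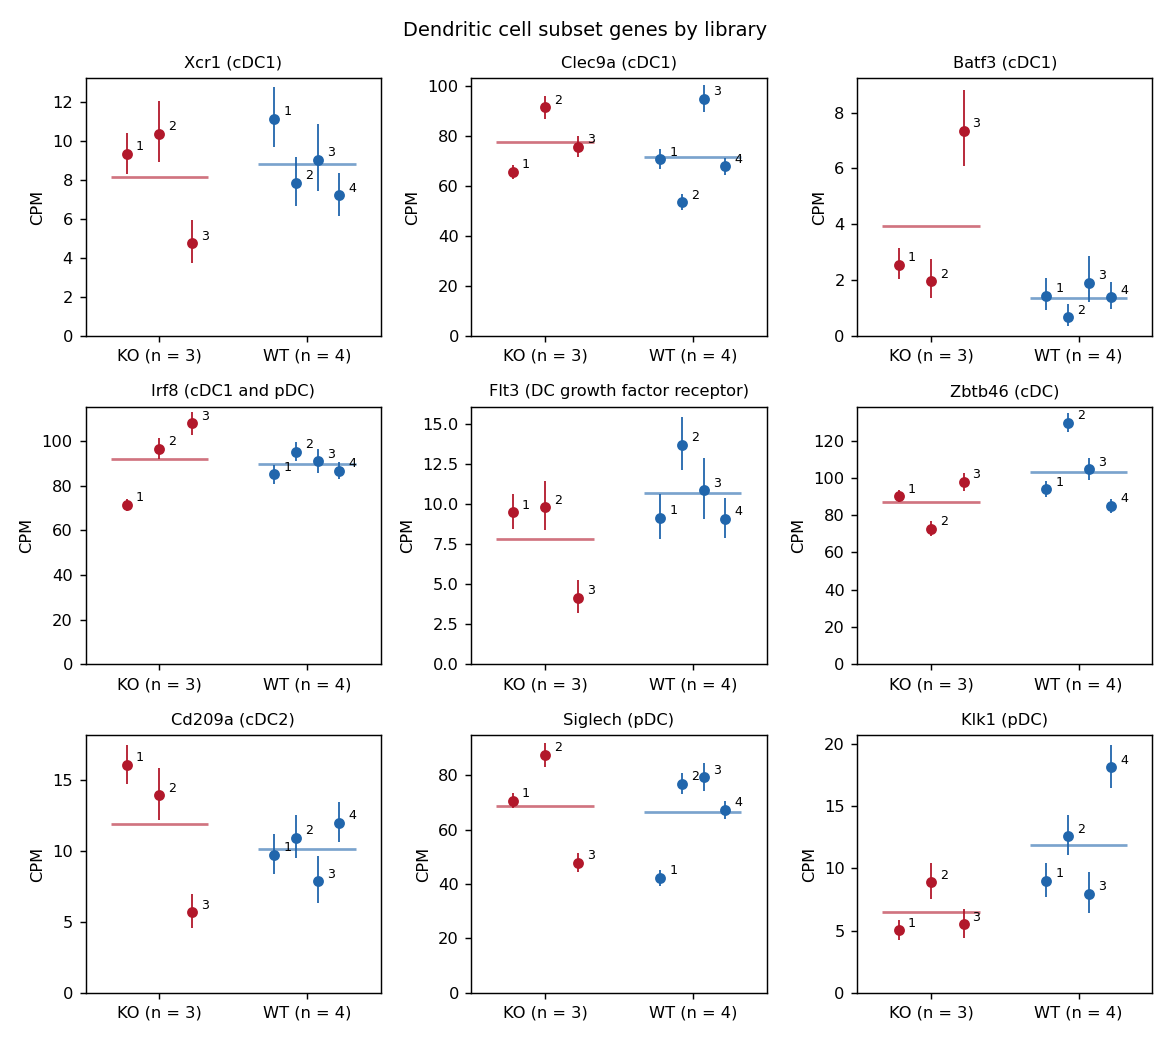
CPM (vertical axes, each starting at 0) of the 9 subset genes in 3 KO (red, left) and 4 WT (blue, right) libraries; numbers are replicates, horizontal lines are group means and vertical bars are 95% Poisson intervals of the count, which cover counting error only. Batf3 is the 1 gene of the 9 whose groups do not overlap, and KO replicate 3 is the lowest library for Xcr1, Flt3 and Cd209a.

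Xcr1 and Clec9a are the surface receptors that define cDC1. Xcr1, which senses the chemokine Xcl1 from NK and T cells, was at 9.35, 10.4 and 4.76 CPM in KO replicates 1 to 3, against 11.2, 7.86, 9.05 and 7.23 CPM in WT replicates 1 to 4. The groups overlapped, with KO replicate 3 the lowest of all libraries and WT replicate 1 the highest. Its log2 fold change was -0.11 ± 0.30 (SE; edgeR, adjusted p = 0.980), and without KO replicate 3 it was 0.16 ± 0.23. Clec9a, a lectin that binds actin filaments laid bare on dead cells, was at 65.5, 91.4 and 75.6 CPM in KO and at 70.7, 53.4, 94.8 and 67.8 CPM in WT libraries. Both ends of its range were WT libraries, and every KO value lay between them. Its log2 fold change was 0.11 ± 0.22 (SE; edgeR, adjusted p = 0.974), and it was -0.0038 ± 0.20 without WT replicate 2. Of the exon length of Clec9a, 184 bases (5.59%) also lie in exons of Clec1b on the same strand, and reads there could have been dropped or assigned to either gene. Clec1b was at 222 ± 13.5 CPM (SD, n = 3) in KO and 293 ± 47.8 CPM (SD, n = 4) in WT libraries. The part of Clec1b reads in the Clec9a count was not tested.

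Both receptors mark the same subset, but their ratio was not constant. For every 100 Clec9a counts there were 14.3, 11.4 and 6.30 Xcr1 counts in KO libraries, against 15.8, 14.7, 9.54 and 10.7 in WT libraries. KO replicate 3 had the lowest ratio of the 7 libraries, with a Clec9a level in mid-range and an Xcr1 level at the bottom. Mouse pDC also carry some Clec9a, so this gene is the less exclusive of the pair.

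Batf3 and Irf8 encode the transcription factors on which cDC1 depend. Batf3, a partner of Jun proteins at AP-1 sites, was at 2.54, 1.95 and 7.35 CPM in KO libraries (84, 33 and 119 counts), against 1.44, 0.672, 1.91 and 1.39 CPM in WT libraries (27, 13, 23 and 33 counts). Every KO library lay above every WT library, which was true of 3.03% of all genes tested. The gap between the groups was narrow, however. The 95% Poisson intervals of KO replicate 2 (1.34 to 2.74 CPM) and WT replicate 3 (1.21 to 2.86 CPM) covered each other, while KO replicate 3 stood far above the rest. Relative to library totals without the TMM factor, KO replicate 2 (33 of 19383142 counts) lay below WT replicate 3 (23 of 11678385). The log2 fold change was 1.55 ± 0.51 (SE; edgeR, unadjusted p = 0.0118, adjusted p = 0.908), the 183rd smallest p of 14077. Without KO replicate 3 it was 0.76 ± 0.41 (unadjusted p = 0.0985), without WT replicate 2 it was 1.32 ± 0.52, and without both 0.54 ± 0.30. The adjusted p of Batf3 lay between 0.298 and 0.993 over 17 other settings, the lowest in DESeq2.

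Irf8, which is also active in B cells, monocytes and macrophages, was the steadiest of the 9 genes in WT libraries, at 85.0, 95.2, 90.8 and 86.6 CPM (89.4 ± 4.56, SD, n = 4). The KO libraries spread on both sides of that range, at 71.2, 96.3 and 108 CPM (91.8 ± 18.7, SD, n = 3), with replicate 1 the lowest of all and replicate 3 the highest. The log2 fold change was 0.04 ± 0.19 (SE; edgeR, adjusted p = 0.983) and -0.10 ± 0.18 without KO replicate 3. Summed B cell markers, 10 genes of which none was at 0, were at 209 to 340 CPM in KO and 176 to 248 CPM in WT libraries. KO replicate 1 held both the highest B cell sum and the lowest Irf8 level. The part of B cell RNA in the Irf8 count was not tested. For every 100 Irf8 counts there were 3.57, 2.03 and 6.82 Batf3 counts in KO libraries, against 1.69, 0.707, 2.10 and 1.60 in WT libraries, so on this ratio KO replicate 2 fell inside the WT range. Per 100 Clec9a counts there were 3.88, 2.13 and 9.73 Batf3 counts in KO and 2.03, 1.26, 2.01 and 2.05 in WT libraries. On that ratio KO replicate 2 lay just above the WT range.

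The promoters of Batf3 and of the pDC genes Klk1 and Siglech are shown because Batf3 and Klk1 had the smallest p-values of the 9 genes and Siglech marks the same subset as Klk1. The sequences are RefSeq's on build GRCm38.p6, 250 bases before to 50 after the start, while the counts were made on GRCm39; all 9 genes had an entry. Capitals mark matches on either strand to GAGGAA (the core of sites for the myeloid factor PU.1) or CAGGTG (an E-box, the kind of site bound by the pDC factor Tcf4). TGANTCA (AP-1) and GAAA repeated after any 2 bases (interferon regulatory factors) were searched as well, and in these 9 genes no match of one motif overlapped a match of another.
Batf3, chr1:191098164-191098463, plus strand: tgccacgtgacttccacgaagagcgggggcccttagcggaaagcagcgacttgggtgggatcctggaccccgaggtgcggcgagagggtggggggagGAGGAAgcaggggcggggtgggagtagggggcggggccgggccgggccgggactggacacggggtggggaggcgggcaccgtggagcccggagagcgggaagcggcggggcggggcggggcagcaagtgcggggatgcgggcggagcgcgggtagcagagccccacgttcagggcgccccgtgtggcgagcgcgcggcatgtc
Klk1, chr7:44225110-44225409, plus strand: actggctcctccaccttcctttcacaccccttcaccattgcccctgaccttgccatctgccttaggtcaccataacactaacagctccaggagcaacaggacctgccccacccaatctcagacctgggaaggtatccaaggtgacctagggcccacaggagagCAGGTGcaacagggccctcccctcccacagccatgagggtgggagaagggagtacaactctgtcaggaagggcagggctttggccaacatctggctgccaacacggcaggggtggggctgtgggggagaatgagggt
Siglech, chr7:55767934-55768233, plus strand: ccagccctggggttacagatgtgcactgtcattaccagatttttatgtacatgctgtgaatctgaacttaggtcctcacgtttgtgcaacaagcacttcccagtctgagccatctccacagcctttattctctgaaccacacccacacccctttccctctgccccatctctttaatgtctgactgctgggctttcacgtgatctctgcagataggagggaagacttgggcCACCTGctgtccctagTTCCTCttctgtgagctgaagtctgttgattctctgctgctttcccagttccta
The Batf3 promoter holds 1 match, GAGGAA, 153 to 148 bases before the start. The Klk1 promoter holds CAGGTG 87 to 82 bases before the start. The Siglech promoter holds CAGGTG on the minus strand, 20 to 15 bases before the start, and GAGGAA on the minus strand across the start itself. These matches are common: of 32851 promoters of this length, 20.2% hold CAGGTG, 28.3% GAGGAA, 7.81% TGANTCA and 3.44% the GAAA pair. Among the other 6 genes, Zbtb46 holds TGANTCA and CAGGTG and 1 of the Irf8 promoters holds CAGGTG, while no match to the 4 motifs lies in the windows of Xcr1, Clec9a, Flt3 and Cd209a.

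Flt3 and Zbtb46 are shared by several dendritic cell subsets. Flt3, the receptor tyrosine kinase for Flt3l, was at 9.50, 9.82 and 4.14 CPM in KO libraries, against 9.15, 13.7, 10.9 and 9.08 CPM in WT libraries. KO replicates 1 and 2 lay among the WT values, and KO replicate 3 lay below every other library. The log2 fold change was -0.45 ± 0.32 (SE; edgeR, adjusted p = 0.956), -0.15 ± 0.23 without KO replicate 3 and -0.0026 ± 0.17 without WT replicate 2 as well. Zbtb46, a zinc finger repressor of conventional dendritic cells that endothelial cells express too, was at 90.1, 72.7 and 97.7 CPM in KO and 93.8, 129.6, 105 and 85.0 CPM in WT libraries. WT replicate 2 was the highest and KO replicate 2 the lowest, and the groups overlapped (log2 fold change -0.25 ± 0.21, SE; edgeR, adjusted p = 0.956). The sum of 13 endothelial markers, none of them at 0, was 7315, 6813 and 10173.5 CPM in KO libraries and 8161, 16837, 6446 and 6141 CPM in WT libraries. The library richest in these markers was thus also the one with the most Zbtb46, and without it the log2 fold change of Zbtb46 was -0.12 ± 0.17; the part of endothelial RNA in the Zbtb46 count was not tested.

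Cd209a, a C-type lectin of the DC-SIGN family found on cDC2 and on monocyte-derived cells, split the KO libraries. It was at 16.1, 14.0 and 5.68 CPM in KO replicates 1 to 3, against 9.73, 11, 7.89 and 12.0 CPM in WT libraries. KO replicates 1 and 2 lay above every WT library and KO replicate 3 below every one. Over all libraries the log2 fold change was 0.23 ± 0.34 (SE; edgeR, adjusted p = 0.957). Without KO replicate 3 it was 0.56 ± 0.21 (unadjusted p = 0.0287, adjusted p = 0.825), and with library quality weights in voom it was 0.61 ± 0.21 (unadjusted p = 0.0150, adjusted p = 0.315). Without KO replicate 1 it was -0.05. Of the 6 other Cd209 genes in the mouse cluster, edgeR called 0, with 0 at an unadjusted p under 0.05; DESeq2 and voom called 0 with 1, and voom with quality weights 0 with 3, a fit in which 11.2% of all genes had such a p. Their median log2 fold change was -0.31, and it lay between -0.51 (without KO replicate 2) and -0.03 (without KO replicate 3) when 1 library was left out; without WT replicate 1 it was -0.09. Cd209d, named after its values were seen, had the same arrangement as Cd209a, at 21.0, 16.2 and 6.43 CPM in KO libraries and 11.6, 8.59, 10.8 and 13.6 CPM in WT libraries. Cd209f, at 1.51, 0.296 and 3.15 CPM in KO and 2.13, 4.14, 4.23 and 5.88 CPM in WT libraries, had a log2 fold change of -1.32 ± 0.60 (SE), which was -2.07 without KO replicate 3 and -0.85 without KO replicate 2. The log2 fold changes of Cd209g (-0.98 ± 0.65) and Cd209b (-0.42 ± 0.34) lay between -1.68 and -0.45 and between -0.61 and -0.12 with 1 library left out. The family median was 0.03 in voom with quality weights. No stretch of 50 bases of Cd209a transcripts occurs in a transcript of another gene, so sharing of reads within the cluster would need shorter matches.

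Siglech and Klk1 were chosen for pDC. Siglech, a sialic acid-binding lectin that signals through the adaptor Tyrobp, was at 70.7, 87.5 and 47.8 CPM in KO libraries, against 42.3, 76.9, 79.3 and 67.3 CPM in WT libraries. The lowest value belonged to WT replicate 1, the next to KO replicate 3, and the groups overlapped throughout. The log2 fold change was 0.05 ± 0.27 (SE; edgeR, adjusted p = 0.984), and 0.25 ± 0.26 without KO replicate 3. Klk1, a secreted serine protease of the tissue kallikrein family whose transcript is found in mouse pDC as well as in kidney and salivary gland, was at 5.02, 8.87 and 5.50 CPM in KO and 8.99, 12.6, 7.97 and 18.1 CPM in WT libraries. KO replicates 1 and 3 lay below every WT library, and KO replicate 2 lay between WT replicates 3 and 1. The log2 fold change was -0.89 ± 0.34 (SE; edgeR, unadjusted p = 0.0256, adjusted p = 0.956). It was below 0 in all 17 other settings and lay between -1.20 and -0.61 when 1 library was left out, with unadjusted p between 0.0104 and 0.0899.

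Klk1 shared more sequence with other genes than the other 8 did. Of its 945 words of 50 bases, 257 (27.2%) occur in transcripts of other genes, 170 of them in Klk1b5, whereas the share was at most 4.02% in every other subset gene. Klk1b5 itself had 0 counts in KO and 1 count in WT libraries, Klk1b4 was at 0.870 ± 0.434 and 0.749 ± 0.664 CPM, and Klk1b27 at 1.65 ± 0.591 and 2.18 ± 0.899 CPM (KO and WT, SD, n = 3 and 4). Of the 13 kallikrein 1-related genes listed, 7 had a row, 2 were tested and edgeR called 0, with 0 at an unadjusted p under 0.05; DESeq2 and voom also called 0 with 0, and voom with quality weights called 0 with 1. The median log2 fold change of the 2 was -0.14, and it was 0.45 without WT replicate 4, -0.03 without KO replicate 1 and -0.31 without KO replicate 2.

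Klk1 and Siglech did not keep a constant ratio either. For every 100 Siglech counts there were 7.11, 10.1 and 11.5 Klk1 counts in KO libraries, against 21.3, 16.4, 10.1 and 26.9 in WT libraries. All 3 KO ratios lay below those of WT replicates 1, 2 and 4, and WT replicate 3 fell among the KO ratios. WT replicate 4, which held the most Klk1, also held the most hepatocyte RNA. The sum of 10 hepatocyte markers was 39618, 28787 and 18531 CPM in KO and 20159, 30032, 31155 and 58746 CPM in WT libraries. KO replicate 1 had the least Klk1 and the second-highest hepatocyte sum, so the order of the 7 libraries differed between these measures; the part of hepatocyte RNA in the Klk1 count was not tested.

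**Figure D2:**
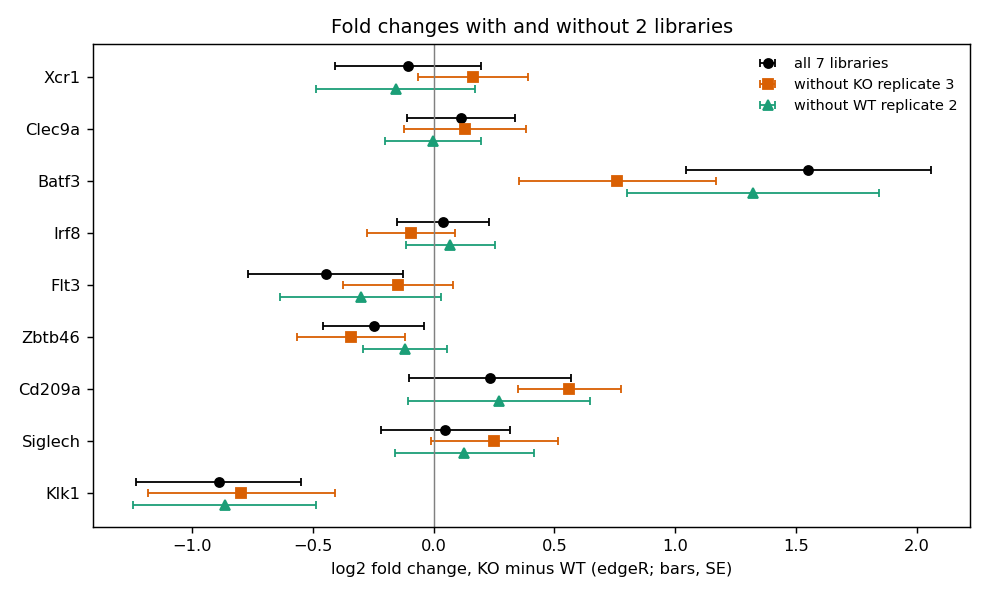
Log2 fold change of each subset gene, KO minus WT (horizontal axis; edgeR, bars are SE), with all 7 libraries (circles), without KO replicate 3 (squares) and without WT replicate 2 (triangles). Without KO replicate 3 Batf3 is at 0.76 and Cd209a at 0.56, while Klk1 lies between -0.89 and -0.80 in the 3 fits.

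Levels were also taken per kilobase of merged exon (GENCODE M21 lengths). By the mean of all 7 libraries, Clec9a and Siglech were then the highest of the 9 genes and Batf3 and Flt3 the lowest. This order depends on the length used. Merged exons held 7055 bases for Irf8, 1597 for Batf3 and 6176 for Flt3. Their protein-coding transcripts held only 3431, 752 and 3608 distinct words of 50 bases. For Clec9a (3293 bases, 3385 words) and Siglech (3383 bases, 3367 words) the measures were close. The order on another length was not tested. By the KO means alone Batf3 stood above Xcr1 and Cd209a above Klk1. Library by library, Batf3 was above Xcr1 in KO replicate 3 and below it in KO replicates 1 and 2. Cd209a was above Klk1 in KO replicates 1 and 2 and below it in KO replicate 3. Clec9a was at 23.5 ± 3.96 CPM per kb in KO and 21.8 ± 5.21 in WT libraries, Siglech at 20.3 ± 5.89 and 19.6 ± 5.0, and Irf8 at 13 ± 2.65 and 12.7 ± 0.646 (SD, n = 3 and 4). Zbtb46 followed at 10.2 ± 1.51 CPM per kb in KO and 12.1 ± 2.27 in WT, Klk1 at 6.00 ± 1.95 and 11.1 ± 4.25, and Cd209a at 7.53 ± 3.47 and 6.41 ± 1.12. Xcr1 at 1.84 ± 0.675 and 1.98 ± 0.390, Batf3 at 2.47 ± 1.9 and 0.846 ± 0.319, and Flt3 at 1.27 ± 0.517 and 1.73 ± 0.351 CPM per kb (KO and WT) made up the low end. Among neighbours, the 1 step without overlap in this order was between Cd209a and Xcr1, where Cd209a was higher in 7 of 7 libraries and the ranges did not meet. Each other gene stood above the next in 2 to 6 of the 7 libraries, and the ranges of those neighbours overlapped.

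KO replicate 3 was at 1 end of the range for 5 of the 9 genes. It was the lowest library for Xcr1, Flt3 and Cd209a, and the highest for Batf3 and Irf8. Relative to each gene's mean over the 7 libraries, on the log2 CPM scale, it stood at -0.79 for Xcr1, -1.10 for Flt3, -0.86 for Cd209a, -0.45 for Siglech and -0.67 for Klk1, but at 0.05 for Clec9a and 1.87 for Batf3. WT replicate 2 was the highest library for Flt3 and Zbtb46 and the lowest for Clec9a and Batf3. KO replicate 3 also held the smallest summed level of 14 T and NK cell markers, none of them at 0. It was at 222 CPM, the other KO libraries at 422 and 553 CPM, and the WT libraries at 266 to 818 CPM; the part of this difference in the low values was not tested.

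**Figure D3:**
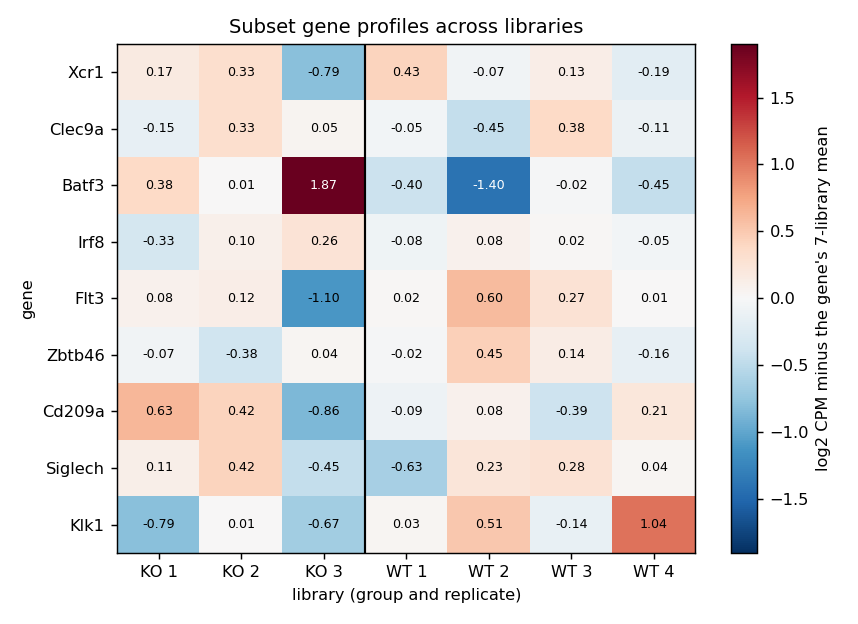
Log2 CPM of each subset gene minus its own mean over the 7 libraries (colour and printed value), with KO libraries left of the line and WT libraries right of it. KO replicate 3 reads -1.10 for Flt3 and 1.87 for Batf3, the outermost values of these genes in that library.

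Of the pairs among the 9 genes, 6 were tested for correlation across the 7 libraries, and none of these 6 passed the threshold. Pearson's r on log2 CPM was 0.17 for Xcr1 and Clec9a (Spearman's rho 0.14), 0.21 for Siglech and Klk1 (rho -0.07) and 0.25 for Flt3 and Zbtb46 (rho 0.39). Across subsets it was -0.24 for Clec9a and Cd209a (rho -0.43), 0.18 for Clec9a and Siglech (rho 0.29) and 0.52 for Cd209a and Siglech (rho 0.36). The smallest exact permutation p for r was 0.229 (Cd209a and Siglech; for rho 0.444), and after adjustment over the 6 pairs every p for r was 0.715; the p for rho lay between 0.834 and 0.906 after adjustment. Without the 2 libraries farthest from the median of the first gene, the 6 values of r were 0.49, -0.24, 0.40, -0.06, 0.39 and 0.27 in the same order. With 7 libraries a moderate relation would not be detectable.

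The genes whose profiles lay closest to a subset gene were found by the root mean square difference of centred log2 CPM over the 7 libraries, among 13050 other genes of at least 1 CPM on average. With so many genes and 7 libraries, close profiles are found for any gene, and they are given as a description. Closest to Xcr1 were Tmem71 (difference 0.08) and D030056L22Rik (0.10), to Clec9a Ptpn13 (0.06) and Nup210 (0.07), and to Irf8 Rad51d (0.06) and Napsa (0.06). Flt3 lay closest to Gpm6b (0.11) and Tbc1d8b (0.13), Zbtb46 to Spring1 (0.07) and Tcp11l2 (0.08), Cd209a to Rpl10-ps3 (0.11) and Sh3yl1 (0.13), and Siglech to Xkrx (0.07) and Cop1 (0.14). The differences were largest for Batf3 and Klk1, which also varied most among the 9 genes (SD of log2 CPM 1.00 and 0.64), and they are not scaled to that spread. The closest to Batf3 were Iqgap3 (0.28) and Oas1b (0.32), and Oas1b, an interferon-induced gene, was at 9.47, 13.1 and 24.4 CPM in KO and 8.30, 4.03, 10.1 and 7.90 CPM in WT libraries. The closest to Klk1 were Cyp4a12a (0.23), a cytochrome P450 of hepatocytes at 24.9, 45.6 and 32.2 CPM in KO and 39.6, 52.9, 56.4 and 94.6 CPM in WT libraries, and Pdxk (0.25). None of the 9 subset genes was among the 2 closest of another.

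Further genes of the subsets and of their growth were described from 6 lists, with 88 distinct genes tested. EdgeR called 0 of them over all genes, with 5 at an unadjusted p under 0.05, 3 higher and 2 lower; the same tests gave 0 and 6 in DESeq2, 0 and 4 in voom, and 0 and 11 in voom with quality weights. The shares at an unadjusted p under 0.05 were 5.68%, 6.82%, 4.55% and 12.5% of the 88 genes, near those of all genes tested (4.62%, 5.54%, 4.52% and 11.2%). Nfil3, Kitl, Zeb2, Cd300c and Batf were the 5, and their adjusted p in edgeR lay between 0.839 and 0.956. When each of the 7 libraries was left out in turn, the unadjusted p was no longer under 0.05 in 0 fits for Nfil3, 2 for Cd300c (without KO replicate 2 or WT replicate 1), 4 for Kitl (without any of the 3 KO replicates or WT replicate 2), 5 for Zeb2 (without KO replicate 1 or 2, or WT replicate 1, 3 or 4) and 5 for Batf.

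Of 17 further cDC1 genes tested, 1 was lower at an unadjusted p under 0.05. The median log2 fold change was -0.10, and it lay between -0.22 and -0.05 with 1 library left out. Fold changes were below 0 for 13 of the 17 genes (76.5%), beside 48.3% of all genes tested. The gene at an unadjusted p under 0.05 was Nfil3, a transcription factor on which cDC1 and NK cells depend. It was at 3.45, 4.14 and 2.47 CPM in KO, against 4.84, 5.38, 13.2 and 8.19 CPM in WT libraries. Every KO library lay below every WT library, as in 3.05% of all genes tested, and the log2 fold change was -1.22 ± 0.39 (SE; edgeR, unadjusted p = 0.00983, adjusted p = 0.839) and -1.05 ± 0.42 without KO replicate 3. The signalling adaptor Clnk (-0.94 ± 0.49) and Cd8a (-0.85 ± 0.49), which T cells express too, had the next smallest p.

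Of 14 further cDC2 genes, 0 had an unadjusted p under 0.05 in edgeR, and the median log2 fold change was -0.18, with 11 below 0 (78.6%, beside 48.3% of all genes tested). In the marker lists of other cell types this share ran from 10% for B cell markers to 100% for plasma cell and hepatocyte markers. The transcription factor Klf4 was at -0.79 ± 0.46, the NF-kappa-B subunit Relb at 0.45 ± 0.30 and Cd7 at -0.64 ± 0.42 (log2, SE). Of 20 further pDC genes, 1 was higher at an unadjusted p under 0.05 and the median was 0.06, with 12 above 0 and 8 below; with 1 library left out it lay between -0.03 and 0.20. It was Cd300c, a paired-receptor gene, at 7.35, 9.76 and 8.34 CPM in KO and 4.25, 3.93, 7.31 and 4.24 CPM in WT libraries. Its groups did not overlap, though KO replicate 1 and WT replicate 3 were almost level, and its log2 fold change was 0.79 ± 0.28 (SE; edgeR, unadjusted p = 0.0182, adjusted p = 0.956). The endosomal RNA sensor gene Tlr7 was at -0.60 ± 0.34 and the phosphatase gene Ptprs at 0.54 ± 0.37 (log2, SE). Of 11 genes of migratory dendritic cells, 0 had an unadjusted p under 0.05 in edgeR, and the median was 0.0031, between -0.13 and 0.10 with 1 library left out. The chemokine gene Ccl17 was at -0.98 ± 0.46 and Cd83 at -0.23 ± 0.17.

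Among 18 growth factor and progenitor genes, Kitl was lower and Zeb2 higher at an unadjusted p under 0.05, with a median log2 fold change of 0.06 that was -0.14 without KO replicate 3, -0.03 without WT replicate 1 and -0.02 without WT replicate 4. Kitl, the stem cell factor, was at 56.6, 61.1 and 54.0 CPM in KO and 92.5, 189.6, 71.4 and 63.3 CPM in WT libraries, and the groups did not overlap. WT replicate 2, the library richest in endothelial markers, held the most Kitl, and without it the log2 fold change was -0.40 ± 0.18 in place of -0.86 ± 0.35 (SE). Zeb2, a transcription factor of pDC, cDC2 and macrophages, was at 159, 161 and 133.8 CPM in KO and 99.8, 134.2, 88.1 and 98.5 CPM in WT libraries. KO replicate 3 and WT replicate 2 were level, and the other libraries did not overlap; the log2 fold change was 0.52 ± 0.21 (SE), and 0.74 ± 0.13 without these 2 libraries. With quality weights in voom, Zeb2 had an adjusted p of 0.0788. The signal transducer gene Stat5a was at 0.47 ± 0.25. Among 12 ligands and partners of the subset genes, Batf, the closest relative of Batf3 in the list, was higher at an unadjusted p under 0.05 (0.62 ± 0.26; 0.45 ± 0.25 and unadjusted p = 0.100 in edgeR without KO replicate 3), and the median was 0.28 (0.10 without KO replicate 3). Batf was at 5.08, 7.15 and 8.4 CPM in KO and 4.10, 3.88, 5.31 and 4.54 CPM in WT libraries, so that KO replicate 1 lay inside the WT range. Tyrobp was at 0.49 ± 0.30 and Junb at 0.88 ± 0.46. The ligand genes Flt3l (0.25 ± 0.28) and Xcl1 (0.36 ± 0.50), named for the receptors above, overlapped between groups.

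**Figure D4:**
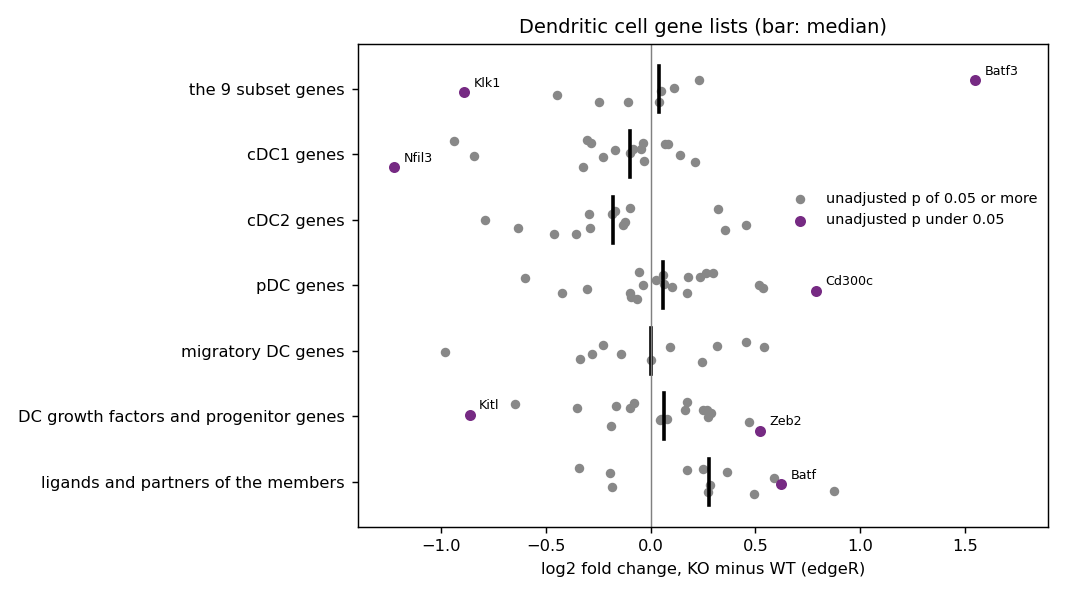
Log2 fold change, KO minus WT, of every tested gene (points) in the 9 subset genes and in 6 lists of dendritic cell genes; black bars are medians and purple points have an unadjusted edgeR p under 0.05. The medians lie between -0.18 and 0.28, and Batf3 at 1.55 and Nfil3 at -1.22 are the outermost points.

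Other cell types of the fraction were measured beside the subset genes. Of 13 Kupffer cell markers, edgeR called 0 over all genes and 6 were lower at an unadjusted p under 0.05 (median log2 fold change -0.63), while DESeq2 called 4, voom 0 and voom with quality weights 2; their sum was 4415 to 5464 CPM in KO and 5858 to 11650 CPM in WT libraries. Of 13 monocyte markers, edgeR called 0 and 2 were higher at an unadjusted p under 0.05 (median 0.03, between -0.0086 and 0.16 with 1 library left out), while Cx3cr1 was called by DESeq2 and also in the weighted voom fit, with sums of 945 to 1650 CPM in KO and 810 to 1098 CPM in WT libraries. The medians were 0.21 for 10 B cell markers, -0.30 for 6 plasma cell markers, -0.43 for 14 T and NK cell markers and 0.47 for 9 neutrophil markers. They were -0.21 for 13 endothelial and -0.36 for 10 hepatocyte markers, and turned to 0.23 for the endothelial markers without WT replicate 2 and to 0.03 for the hepatocyte markers without WT replicate 4. With 1 library left out, the B cell median lay between 0.03 and 0.37, the plasma cell median between -0.39 and -0.08, the T and NK cell median between -0.62 and -0.27, and the neutrophil median between 0.35 and 0.86. At an unadjusted p under 0.05 edgeR had 1, 0, 3, 4, 0 and 1 genes of these lists in the same order, and it called 0 over all genes. DESeq2 called 1 of them, the hepatocyte gene Tat, and had 1, 1, 4, 6, 0 and 3 at an unadjusted p under 0.05; voom with and without quality weights called 0. The neutrophil list was split, with 6 fold changes above 0 and 3 below. Of its 4 genes at an unadjusted p under 0.05 in edgeR, 2 were higher and 2 lower. The smallest p belonged to Ltf (-1.69 ± 0.45), Ngp (-2.04 ± 0.55) and Csf3r (0.47 ± 0.18; log2, SE). The part of these other cell types in the subset genes' values was not tested.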

How the data were processed

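RNA was sequenced from liver nonparenchymal cells of 3 KO and 4 WT libraries, with TruSeq v2 kits per the labels' protocols, which do not mark strand. The authors deposited raw read counts per gene, 20354 rows, made with STAR 2.7.10a and featureCounts 2.0.3 and build GRCm39; the tools and build are those that the submitters' processing notes name. The sources used here give neither annotation nor counting settings. Replicates are numbered in accession order within a group. The labels do not say that each library is a separate mouse, so p-values measure the spread between libraries, and every pair of libraries differed beyond counting noise (chi-square over its degrees of freedom 38.0 to 294). Groups, members, gene lists and tests were chosen with earlier results of these data known.

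EdgeR 4.0.16 (R 4.3.3; TMM, filterByExpr with a minimum count of 10 and total of 15, robust glmQLFit and glmQLFTest) tested 14077 genes, with Benjamini-Hochberg adjustment and a threshold of 0.05. Standard errors came from the fold change and the F statistic. Log2 CPM used a prior count of 2. DESeq2 1.42.0, limma 3.58.1 (voom with and without quality weights), 4 other scalings, 2 other filters and left-out libraries were alternatives. The script was tested on simulated data. Named genes are the 9 subset genes, the 3 smallest p of each list, as far as they bear on dendritic cells, and the 2 nearest profiles. In the neutrophil list the 3 smallest p were named to give their direction. Correlations used exact permutation tests. Exon lengths, 50-base words and overlaps came from GENCODE M21 (GRCm38). Poisson intervals cover counting error only.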

Additional observations from a re-analysis of the deposited data

How the results depend on the processing

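No subset gene was called over all genes under any of 17 other settings. Over all genes the count of calls moved from 0 to 66 with DESeq2, 9 with voom and quality weights, 3 with library size only, 3 with no filter and 2 without WT replicate 2 and KO replicate 3 together; it was 0 in the other 12. The fold changes of Batf3, Flt3, Zbtb46 and Klk1 kept their direction in all 17. Small fold changes turned: with quality weights Xcr1 was at 0.078, Clec9a at -0.012 and Irf8 at -0.068; without the 2 libraries together Xcr1 was at 0.11 and Irf8 at -0.064; with library size only Irf8 and Siglech were each at -0.0013. With 1 library left out, Xcr1 ranged from -0.32 to 0.16, Clec9a from -0.033 to 0.28, Irf8 from -0.10 to 0.18, Cd209a from -0.054 to 0.56, Siglech from -0.17 to 0.25 and Batf3 from 0.76 to 1.86. With library size only, r was -0.040 for Siglech and Klk1 and -0.062 for Clec9a and Siglech. With 1 library left out, r ranged from -0.0043 to 0.46 for Xcr1 and Clec9a, -0.027 to 0.34 for Siglech and Klk1, -0.24 to 0.82 for Flt3 and Zbtb46, -0.075 to 0.52 for Clec9a and Siglech, -0.53 to -0.048 for Clec9a and Cd209a and 0.24 to 0.70 for Cd209a and Siglech. The cause was not tested. No paired analysis was possible because the library numbers in the labels are not shared between the groups. Batf3 rests on 13 to 33 counts in each WT library, which limits its precision.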
